A study of Mus musculus with 9 samples.

Results

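The 9 genes described here act in the making, sensing and clearing of prostaglandins: the cyclooxygenases Ptgs1 and Ptgs2, the terminal synthases Ptges, Ptges2, Ptges3 and Ptgds, the prostaglandin E receptors Ptger3 and Ptger4, and the catabolic enzyme Hpgd. They were taken by symbol, and all 9 were found among the 24015 genes of each of the authors' deposited tables. RNA came from the microdissected dentate gyrus of C57BL/6 mice aged 8 weeks, with 1 library per mouse and 3 mice a group, named E0, E1 and E4. The question behind the series is what neuronal activation does to transcripts and to open chromatin, and the labels neither name an agent nor state what the digit of a group counts. As background to the study, E0 mice were unstimulated and E1 and E4 mice were taken 1 h and 4 h after electroconvulsive stimulation, with no genetic change in any group. The activity-regulated genes Fos and Arc, taken to check the stimulation, had log2 fold changes of 4.64 ± 0.21 and 6.65 ± 0.14 (SE) for E1 in the authors' deposited tables. For E4 the authors' deposited tables had 0.51 ± 0.30 for Fos, which was not called (adjusted p = 0.169), and 3.41 ± 0.33 for Arc. The tissue holds glia, vessels and interneurons beside granule neurons, and in such bulk RNA fewer cells of a type and less RNA per cell cannot be told apart.

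Cyclooxygenases turn arachidonic acid, released from membrane phospholipid, into prostaglandin H2, which terminal synthases convert into prostaglandin E2, D2 and other prostanoids. These leave the cell, act on G protein-coupled receptors nearby and are inactivated by 15-hydroxyprostaglandin dehydrogenase, the product of Hpgd. In brain, Ptgs2 is known as the neuronal cyclooxygenase whose transcript is induced by synaptic activity, and Ptgs1 as the form found in microglia.

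Promoters are shown for Ptgs2 and Ptges3, the members raised in both comparisons, and for Ptgs1, the paralogue of Ptgs2 that was not raised. The sequences are RefSeq windows of 300 bases on GRCm38.p6, from 250 bases before to 50 after the annotated start, and capitals mark every match to the motifs searched on both strands. Ptgs2 lies on the plus strand at chr1:150099781-150100080, Ptges3 on the plus strand at chr10:128058732-128059031 and Ptgs1 on the plus strand at chr2:36230176-36230475.
Ptgs2: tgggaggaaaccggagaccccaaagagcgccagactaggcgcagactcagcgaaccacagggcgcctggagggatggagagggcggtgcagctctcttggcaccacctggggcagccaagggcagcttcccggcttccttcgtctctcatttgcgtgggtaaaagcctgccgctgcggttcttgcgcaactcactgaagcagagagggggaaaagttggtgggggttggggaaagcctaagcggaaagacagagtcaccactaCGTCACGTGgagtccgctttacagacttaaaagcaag
Ptges3: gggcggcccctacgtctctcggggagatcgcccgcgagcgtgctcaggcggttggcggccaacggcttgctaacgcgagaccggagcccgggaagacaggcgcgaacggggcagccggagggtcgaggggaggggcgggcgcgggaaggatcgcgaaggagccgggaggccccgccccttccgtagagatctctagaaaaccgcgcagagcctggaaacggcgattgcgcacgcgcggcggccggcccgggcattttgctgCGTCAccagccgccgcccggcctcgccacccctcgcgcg
Ptgs1: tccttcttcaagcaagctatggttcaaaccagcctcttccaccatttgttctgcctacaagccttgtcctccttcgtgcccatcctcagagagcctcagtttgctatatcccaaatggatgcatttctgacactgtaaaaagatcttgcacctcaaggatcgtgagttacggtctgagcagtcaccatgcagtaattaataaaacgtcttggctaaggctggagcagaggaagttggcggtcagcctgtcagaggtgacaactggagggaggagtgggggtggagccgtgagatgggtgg

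The motifs were the cAMP response element (TGACGTCA), its short core (CGTCA), the AP-1 element (TGANTCA), the E-box (CACGTG) and the TATA box (TATAAA). In the Ptgs2 window the short core at positions 14 to 18 after the start overlapped an E-box at positions 17 to 22. The Ptges3 window held the short core at positions 12 to 16, and the Ptgs1 window held no match. Of the 9 members these 2 had the short core, which 20.8% of all 32851 RefSeq promoter windows hold, and Ptgs2 and Ptges2 had the E-box, held by 7.15%. Ptgds had the AP-1 element at positions -35 to -29 (7.81% of all windows). Hpgd had the letters of the TATA box (13.6%) at positions 5 to 10, which is downstream of the annotated start. The full cAMP response element was in none of the 9 windows and in 1.79% of all.

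The 3′ untranslated region differed among members as well. That of Ptgs2 in the longest coding transcript of GENCODE vM21 had 2445 bases and 14 copies of ATTTA, the core of AU-rich elements through which decay factors shorten the life of early response mRNAs. Of 2766 genes with a 3′ untranslated region of like length (0.8 to 1.25 times), 1.81% had at least as many and the median was 4. Ptgs1, Ptges and Ptgds had 0 copies, Ptger4 had 5, and Ptges2, Ptges3, Ptger3 and Hpgd had 4 each.

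For each gene the deposited tables hold a mean count (averaged over 6 libraries after division by size factors), a log2 fold change with its SE, and p-values, and called means an adjusted p of the authors below 0.05. For genes with few reads the whole reads of every library could be solved from the mean counts of both tables, which was done for 5 of the 9 members. Of 1082 genes with a mean count of 5 to 12 in the table for E4, all had a single solution there, and for 1068 (98.7%) the E0 reads so found left whole reads for E1 in the other table. With the E0 reads of another gene, 3 of 1082 did so (0.277%). At higher mean counts exactly 1 solution in both tables was found for 39 of 40 genes between 20 and 40, for 18 of 20 between 40 and 70 and for 7 of 8 above 70. E0 reads of another gene left whole E1 reads in 0 of 39 trials between 20 and 40. They did so in 1 of 19 between 40 and 70, where Hpgd lies, and in 0 of 37 above 70. Above 70 only 1 of the 8 genes had a single solution in the table for E4. Ptgs1, at the top of that range, had 7 solutions in the table for E4 and 1 in both. Libraries of a group are given by falling depth, since they cannot be tied to replicate numbers, and their values are normalised counts on the scale of the table for E4. The libraries held about 6140000 to 10960000 reads in genes in E0, 1940000 to 4760000 in E1 and 10020000 to 13550000 in E4. One read is therefore worth 0.883 to 1.58 normalised counts in E0, 2.03 to 4.97 in E1 and 0.715 to 0.966 in E4, so E1 values of rarely read genes are coarse. The share of all genes whose libraries do not overlap between groups is not given. Separation of libraries is therefore a description and not a result of its own. For Ptgs2, Ptges2, Ptges3 and Ptgds, which have too many reads to be solved, group levels were worked out from the mean count and the fold change, and no value per mouse is given.

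Set per kb of transcript, the members spanned about 3 orders of size in E0, and Ptgs2 changed its place among them. The length is that of the longest coding transcript in GENCODE vM21, so the order of members of close level may depend on that choice. For Ptgs2, Ptges2, Ptges3 and Ptgds the E0 level is the one from the table for E1. In E0 the level was 1456 normalised counts per kb for Ptgds and 565 for Ptges3, then 62.6 for Ptgs2, 51.6 for Ptges2, 46.4 ± 10.5 for Ptgs1 and 34.6 ± 6.54 for Hpgd (SD, n = 3, where given). Ptges at 7.24 ± 2.59, Ptger4 at 3.74 ± 0.495 and Ptger3 at 0.781 ± 0.753 normalised counts per kb came last. The SDs of Ptgs1 and Hpgd overlap, so their order is within the spread, while Ptges lay below Hpgd and Ptger3 below Ptger4 by more than theirs. In E1 Ptgs2 stood at 1122 normalised counts per kb, between Ptgds at 1615 and Ptges3 at 779. In E4 it stood at 299, below Ptges3 at 716 and above Ptges2 at 52.5.

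**Figure D1:**
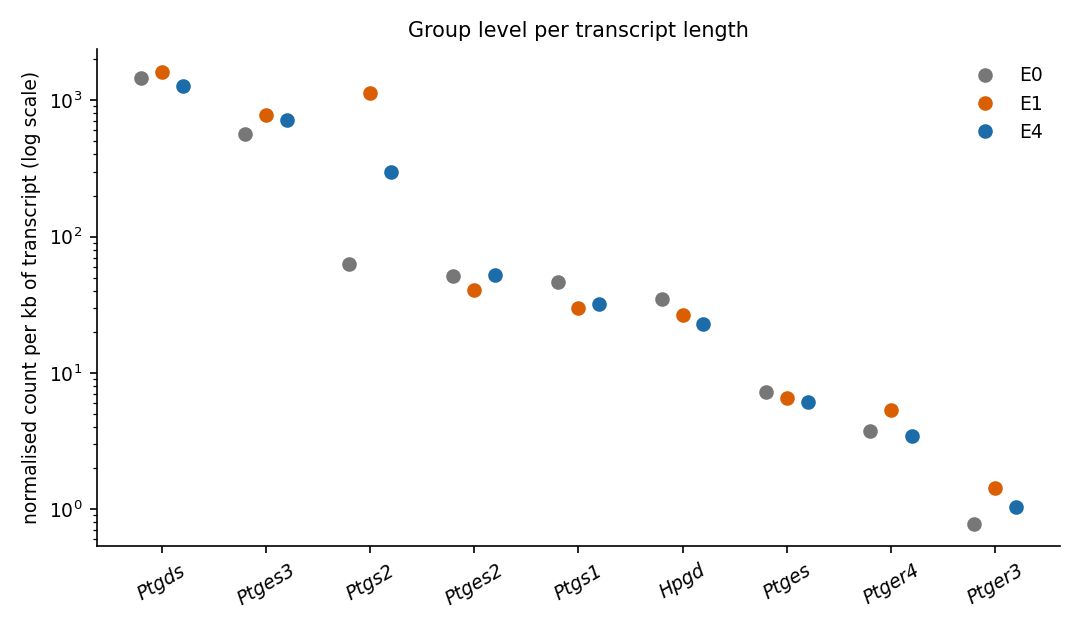
Group level of each member in normalised counts per kb of its longest coding transcript (log axis) in E0, E1 and E4, ordered by the level in E0. Points of Ptgs1, Hpgd, Ptges, Ptger4 and Ptger3 are means of 3 libraries, and the others come from mean count and fold change, with E0 from the table for E1. Ptgs2 stands at 62.6 in E0, 1122 in E1 and 299 in E4.

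At the earlier time 2 of the 9 members were raised, Ptgs2 and Ptges3, 0 were lowered and 7 were not called. Over all genes tested in the authors' deposited table for E1, 20.6% were raised and 15.0% lowered (35.5% in all). Counting unadjusted p-values below 0.05 in the authors' deposited table gave the same 2 and 0. At the later time Ptgs2 and Ptges3 were raised and Ptgs1 was lowered, 5 were not called, and Ptger3 had no adjusted p. In the authors' deposited table for E4, 20.7% of genes were raised and 18.3% lowered (39.0% in all). The median log2 fold change of the members tested was 0.15 in E1 and -0.09 in E4 in the authors' deposited tables, against 0.02 and -0.01 over all genes tested.

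**Figure D2:**
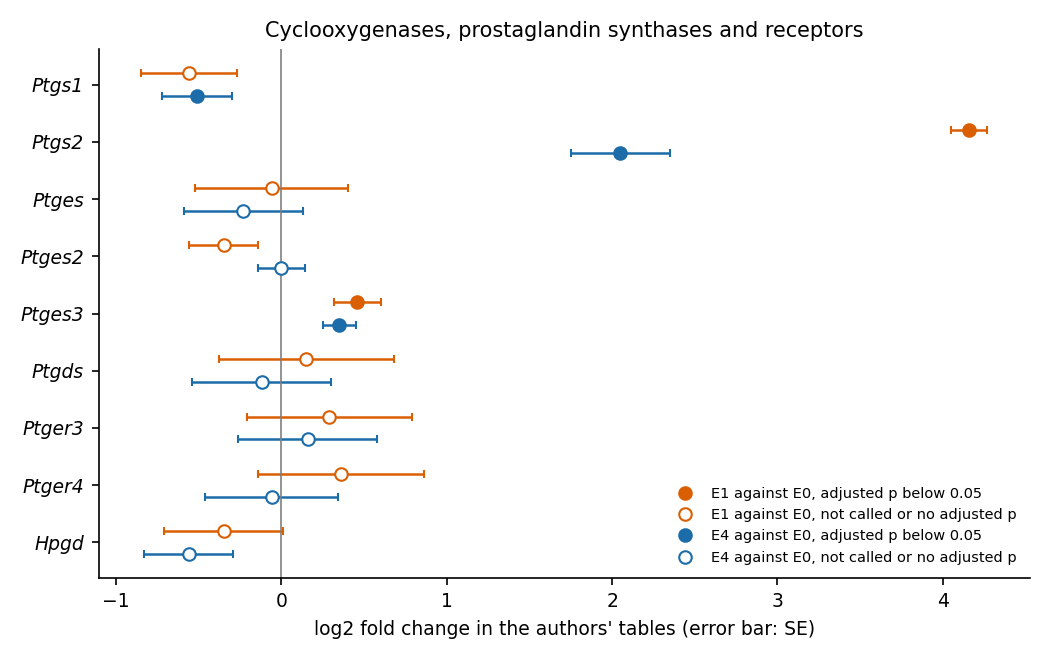
Log2 fold change with its SE for the 9 members in the authors' deposited tables for E1 against E0 and E4 against E0. Filled points have an adjusted p below 0.05, and only those of Ptgs2, at 4.16 in E1 and 2.05 in E4, lie beyond 1 on either side.

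Ptgs2, the inducible cyclooxygenase, carried the largest change of the 9 members in both comparisons. Its group level was about 4995 normalised counts in E1 against 279 in E0 from the table for E1, and about 1331 in E4 against 322 in E0 from the table for E4. The 2 values for E0 rest on the same libraries and differ by 1.15 times. The E4 level of 1331 over the E0 level of 279 is 4.78-fold, a ratio that mixes levels from both comparisons. For E1 the authors' deposited table had a log2 fold change of 4.16 ± 0.11 (SE, 17.9-fold, adjusted p = 1.6e-291). For E4 the authors' deposited table had 2.05 ± 0.30 (4.14-fold, adjusted p = 1.2e-10). Among raised genes of mean count 50 or more, that rise ranked 96 of 2448 in E1 and 85 of 2830 in E4 by log2 fold change. The difference of both log2 fold changes, E4 minus E1, was -2.11 ± 0.32 (SE of the difference), and Ptgs2 was the only member of the 7 tested to differ (normal test on the deposited estimates, adjusted p = 7.8e-10). By that test 36.7% of 12769 genes differed, 17.7% higher in E4 and 19.0% lower. The E4 estimate of Ptgs2 has the larger SE and may be the more shrunken, so its difference may be overstated.

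In the comparison of E4 with E0, Ptgs2 varied more between libraries than most genes of like level. Its SE of 0.30 in the authors' deposited table for E4 compares with a median of 0.11 over 3778 genes with a mean count within 2 times of its own, and 0.397% of these had an SE at least as large. For E1 its SE, 0.11 by the authors' deposited table, equalled the median of like genes. Markers of neurons moved in E1 as well, and their part in the rise of Ptgs2 was not tested. Of 10 granule neuron markers 9 were lowered and 1 was raised, their summed level being 16230 normalised counts in E1 against 25405 in E0, while 7 of 10 interneuron markers were raised (9611 in E1 against 5957 in E0). In E4, 4 granule neuron markers were raised and 5 lowered (summed level 22562 in E4 against 25449 in E0), and no marker of either list was listed at 0.

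Ptgs1, the constitutive cyclooxygenase, was lower at the later time. Its normalised counts were 105, 165 and 129 in the E0 libraries, 105, 80.5 and 69.6 in E1 and 89.3, 99.4 and 85.0 in E4. All 3 E4 values lay below all 3 E0 values, while the highest E1 library reached the lowest E0 library. The mean was 85.2 ± 18.4 in E1 and 91.3 ± 7.40 in E4, against 133 ± 30.2 in E0 (SD, n = 3 each). Ptgs1 was lowered in the authors' deposited table for E4, with a log2 fold change of -0.51 ± 0.21 (adjusted p = 0.0344), a call lost at a threshold of 0.01. For E1 the authors' deposited table had -0.56 ± 0.29, which was not called (adjusted p = 0.121). The log2 fold change in E4 minus that in E1 was 0.05 ± 0.36, with a 95% interval of -0.65 to 0.75 (adjusted p = 0.930, normal test on the deposited estimates). Of 11 microglia and macrophage markers 1 was lowered in E4 (Csf1r), 0 were raised and 10 were not called, with a summed level of 3433 normalised counts in E4 against 3727 in E0. Unadjusted p-values below 0.05 in the authors' deposited table numbered 3 lowered and 0 raised. In E1 3 of the 11 were lowered (2749 in E1 against 3720 in E0), none was listed at 0, and their part in the values of Ptgs1 was not tested.

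**Figure D3:**
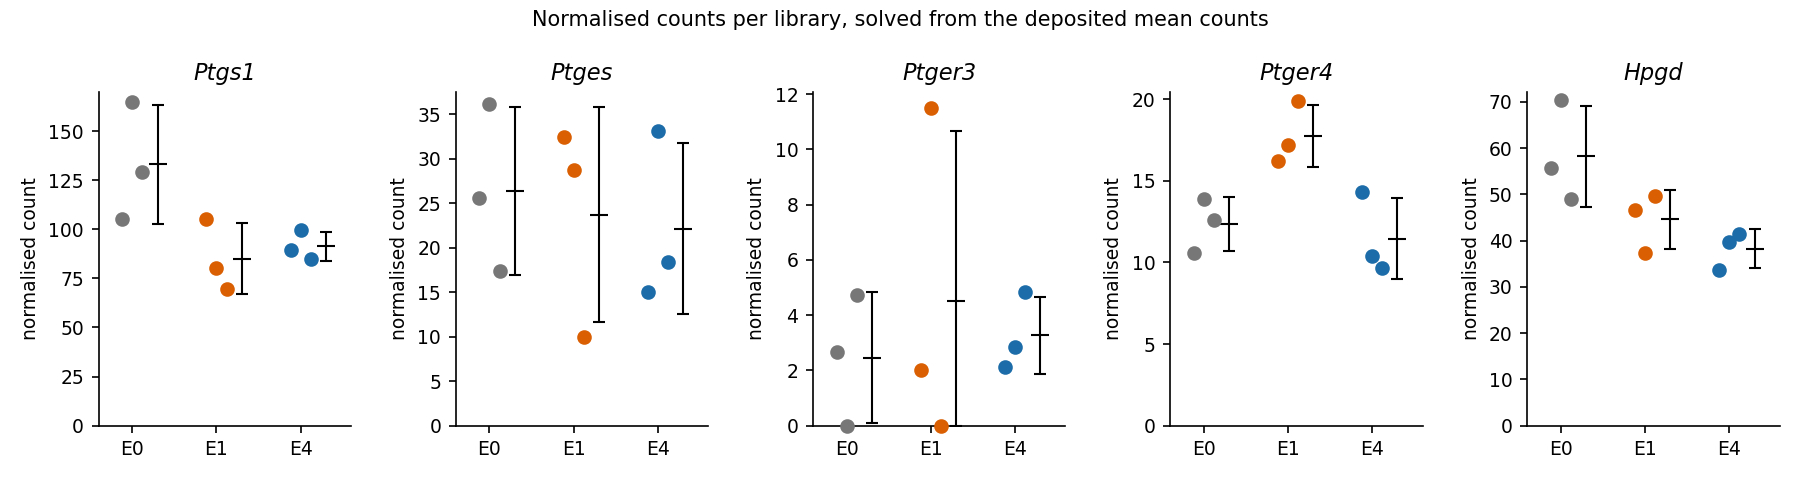
Normalised counts per library of the 5 members whose reads could be solved, with points for single libraries and bars for mean ± SD of 3 (cut at 0). Ptgs1 and Hpgd lie lower in all 3 E4 libraries than in all 3 E0 libraries, and Ptger4 lies higher in all 3 E1 libraries (16.2 to 19.9) than in all 3 E0 libraries (10.6 to 13.9). Of these only Ptgs1 in E4 was called, and the share of all genes whose libraries separate so is not given.

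Of the prostaglandin E synthases, Ptges3 alone was called. Ptges3, known as cytosolic prostaglandin E synthase and as the Hsp90 co-chaperone p23, stood at about 1558 normalised counts in E1 against 1130 in E0, and at about 1432 in E4 against 1125 in E0. By the authors' deposited table for E1 its log2 fold change stood at 0.46 ± 0.14 (1.38-fold, adjusted p = 0.00284). For E4 the authors' deposited table had 0.35 ± 0.10 (1.27-fold, adjusted p = 0.00177). After removal of a centred length and GC trend, the E1 value was 0.31 and was no longer called (adjusted p = 0.0620). A processed pseudogene, Ptges3-ps, is annotated in GENCODE vM21, so reads may have been shared with it.

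Ptges, the microsomal and inducible synthase that is usually paired with Ptgs2 in inflammation, was little read and showed no called change. Its normalised counts were 25.6, 36.2 and 17.4 in E0, 32.5, 28.7 and 9.94 in E1, and 15.0, 33.1 and 18.4 in E4. The 3 groups overlapped, with means of 26.4 ± 9.46 in E0, 23.7 ± 12.1 in E1 and 22.2 ± 9.65 in E4 (SD, n = 3 each). Its log2 fold change for E1, -0.06 by the authors' deposited table, had a 95% interval of -0.98 to 0.85 (adjusted p = 0.936). For E4 the value in the authors' deposited table was -0.23, with an interval of -0.92 to 0.47 (adjusted p = 0.667). Ptges2, the second microsomal form, stood at about 201 normalised counts in E1 against 257 in E0 and at about 261 in E4 against 261 in E0. It was not called in the authors' deposited table for E1 (-0.35 ± 0.21, adjusted p = 0.195) or E4 (0.00 ± 0.14, adjusted p = 0.996). The 95% interval in E4 was -0.28 to 0.28 in the authors' deposited table.

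Ptgds, which makes prostaglandin D2 and is known from leptomeninges, choroid plexus and oligodendrocytes, was the most variable of the members for its level. It stood at about 1455 normalised counts in E1 against 1312 in E0 and at about 1146 in E4 against 1245 in E0. Its log2 fold change in the authors' deposited tables was 0.15 ± 0.53 in E1 (adjusted p = 0.861) and -0.12 ± 0.42 in E4 (adjusted p = 0.855). The median SE of genes with a mean count within 2 times of its own was 0.13 over 2738 genes in E1 and 0.10 over 3042 genes in E4. The shares with an SE at least as large were 0.0365% and 0.0329% in the authors' deposited tables, which in each case is Ptgds itself. The 95% intervals, -0.89 to 1.19 in E1 and -0.94 to 0.70 in E4 in the authors' deposited tables, include both a rise and a fall of 1.5-fold. Of 10 oligodendrocyte markers 2 were raised and 2 lowered in E1, with a summed level of 12057 normalised counts in E1 against 11536 in E0. In E4 0 of the 10 were called, also by unadjusted p in the authors' deposited table, with 11459 in E4 against 11538 in E0. Of 10 leptomeningeal and perivascular fibroblast markers 0 were called in E1 (827 in E1 against 838 in E0), also by unadjusted p in the authors' deposited table. In E4 Lum and Ogn were lowered (510 in E4 against 801 in E0). Ogn, at -3.39 ± 0.25 in the authors' deposited table for E4, weighs most in the fall of that sum. Choroid plexus and ependymal markers summed to 268 normalised counts in E1 against 437 in E0 and to 379 in E4 against 432 in E0. Of 7 such markers 6 were tested in E1, where Kl was lowered (-1.03 ± 0.22 in the authors' deposited table) and 0 were raised, while Ttr stood at 0.33 and Clic6 at 0.55, not called. In E4 4 were tested, with Foxj1 raised and 0 lowered. None of the markers of these 3 lists was at 0 in both tables, and their part in the spread of Ptgds was not tested.

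The receptors were near the limit of detection. Ptger4, a receptor that raises cAMP, had 12, 13 and 8 reads in the E0 libraries, 8, 6 and 4 in E1 and 20, 11 and 10 in E4. Its normalised counts were 10.6, 13.9 and 12.6 in E0, 16.2, 17.2 and 19.9 in E1, and 14.3, 10.4 and 9.66 in E4. All 3 E1 values lay above all 3 E0 values, at 17.8 ± 1.89 in E1 against 12.4 ± 1.64 in E0 (SD, n = 3 each), whereas E4 overlapped E0 at 11.5 ± 2.48. The E1 mean rests on 18 reads, and Ptger4 was not called in the authors' deposited table for E1 (0.36 ± 0.50, adjusted p = 0.633) or E4 (-0.06 ± 0.40, adjusted p = 0.923). Ptger4 overlaps Ttc33 on the opposite strand in GENCODE vM21, and whether counting used strand is not given in the sources used here. Ptger3, a receptor that lowers cAMP, had 3, 0 and 3 reads in E0, 1, 4 and 0 in E1 and 3, 3 and 5 in E4. The groups overlapped and no difference was detectable at this depth (0.29 ± 0.50 in E1, adjusted p = 0.701, and 0.16 ± 0.42 in E4 with no adjusted p, in the authors' deposited tables).

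Hpgd, which inactivates prostaglandins, was not called in either comparison. Its normalised counts were 55.6, 70.3 and 48.9 in E0, 46.7, 37.4 and 49.7 in E1, and 33.6, 39.8 and 41.5 in E4. All 3 E4 values lay below all 3 E0 values, with 38.3 ± 4.18 in E4 against 58.3 ± 11.0 in E0 (SD, n = 3 each), while E1 at 44.6 ± 6.43 overlapped E0. The log2 fold change was -0.56 ± 0.27 in the authors' deposited table for E4 (p = 0.0367, adjusted p = 0.0853). For E1 the authors' deposited table had -0.35 ± 0.36 (adjusted p = 0.490).

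The rest of the pathway was followed in 52 further genes. In E1, 41 had an adjusted p, of which 6 were raised and 3 lowered, with a median log2 fold change of -0.08 in the authors' deposited table. In E4, 35 had one, of which 6 were raised and 10 lowered, with a median of -0.32. Over all genes tested the shares were 20.6% raised and 15.0% lowered in E1 (median 0.02), and 20.7% raised and 18.3% lowered in E4 (median -0.01). Counting only genes that reach a mean count of 10 in each table, E1 had 3 raised and 3 lowered.

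**Figure D4:**
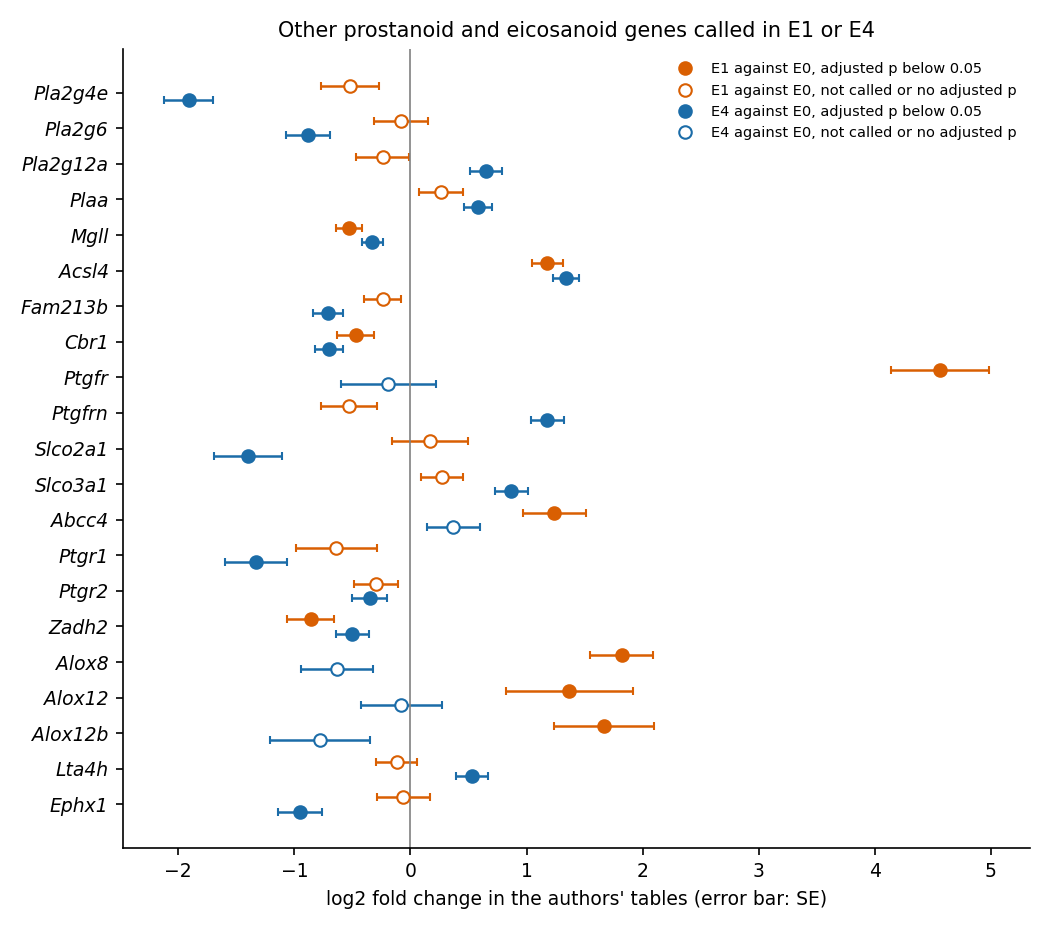
Log2 fold change with its SE of the other prostanoid and eicosanoid genes called in E1 or E4 in the authors' deposited tables. Acsl4 is raised and Mgll, Cbr1 and Zadh2 are lowered at both times, Cbr1 losing its E1 call once a length and GC trend is removed, and Ptgfr (4.56) lies farthest to the right in E1, with no adjusted p in E4.

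Upstream stand 15 genes that release arachidonic acid or tie it up again. In E1 11 of them were tested, with 1 raised and 1 lowered, beside 20.6% and 15.0% of all genes. In E4 10 were tested, with 3 raised and 3 lowered, beside 20.7% and 18.3% of all genes. Acsl4, a ligase that couples arachidonic acid to coenzyme A for reacylation, was raised in the authors' deposited tables at 1.18 ± 0.13 in E1 (adjusted p = 7.9e-18) and 1.34 ± 0.11 in E4 (adjusted p = 8.9e-31). With the length and GC trend removed, Acsl4 stood at 0.70 in E1 and was still called (adjusted p = 8.8e-07). Mgll, the monoacylglycerol lipase that supplies arachidonic acid for prostaglandins in mouse brain, was lowered in the authors' deposited tables at -0.53 ± 0.11 (adjusted p = 6.9e-06) and -0.33 ± 0.09 (adjusted p = 0.00105). The phospholipase gene Pla2g4e had normalised counts of 153, 177 and 148 in E0, 108, 92.0 and 134 in E1 and 36.4, 43.6 and 36.7 in E4. Both later groups lay below every E0 library, and Pla2g4e was lowered in the authors' deposited table for E4 (-1.91 ± 0.21, adjusted p = 5.8e-18) but not called in that for E1 (-0.52 ± 0.25, adjusted p = 0.0975). The classic cytosolic phospholipase gene Pla2g4a was rarely read, with 14 reads in the 3 E1 libraries, 75 in E4 and 33 in E0. Its E4 libraries lay above its E0 libraries, at 17.4 to 25.6 against 5.33 to 16.8 normalised counts, and it was not called in either table (adjusted p = 0.838 in E1 and 0.210 in E4 in the authors' deposited tables).

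Of 5 synthase genes tested in each comparison, 1 was lowered in E1 and 2 were lowered in E4, and 0 were raised in either. Over all genes tested 15.0% were lowered and 20.6% raised in E1, and 18.3% and 20.7% in E4. The carbonyl reductase gene Cbr1, whose product can convert prostaglandin E2, was lowered in both, at -0.47 ± 0.16 in E1 (adjusted p = 0.0106) and -0.70 ± 0.12 in E4 (adjusted p = 2.4e-07) in the authors' deposited tables. Fam213b, a prostamide and prostaglandin F synthase gene, was lowered in the authors' deposited table for E4 at -0.71 ± 0.13 (adjusted p = 6.5e-07). The E1 call of Cbr1 is lost with the length and GC trend removed (-0.27, adjusted p = 0.181) and at an adjusted p of 0.01. Hpgds, the hematopoietic prostaglandin D synthase known from microglia, had normalised counts of 34.4, 50.1 and 28.4 in E0, 71.0, 46.0 and 74.6 in E1 and 35.0, 50.2 and 36.7 in E4. It was not called in the authors' deposited tables (adjusted p = 0.173 in E1 and 0.863 in E4). Ptgfrn, a membrane protein that inhibits prostaglandin F2alpha binding to its receptor, was raised in the authors' deposited table for E4 (1.18 ± 0.14, adjusted p = 2.3e-16), and in that for E1 it stood at -0.53 ± 0.24 (adjusted p = 0.0685). Ptger1 had normalised counts of 65.4, 139 and 128 in E0, 60.9, 69.0 and 74.6 in E1 and 83.6, 88.1 and 70.5 in E4, and 1 E0 library accounts for the overlap. Ptger1 was not called in the authors' deposited tables (-0.64 ± 0.33 in E1, adjusted p = 0.127, and -0.40 ± 0.24 in E4, adjusted p = 0.187).

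Of 7 export and breakdown genes, 4 were lowered and 1 was raised in E4, and 1 was lowered and 1 raised in E1. Over all genes tested 18.3% were lowered and 20.7% raised in E4, and 15.0% and 20.6% in E1. One of the 4 is Ptgr2, named for its place at the threshold, with an adjusted p of 0.0496 in the authors' deposited table (-0.35 ± 0.15). Slco2a1, the prostaglandin uptake transporter, had normalised counts of 51.2, 63.9 and 85.2 in E0, 75.1, 83.4 and 64.6 in E1 and 20.0, 22.7 and 23.2 in E4. It was lowered in the authors' deposited table for E4 (-1.40 ± 0.29, adjusted p = 8.5e-06) and not called in that for E1 (0.17 ± 0.33, adjusted p = 0.739). Slco2a1 is known from brain endothelium, where 0 of 9 markers were called in E4 (1 raised and 1 lowered by unadjusted p in the authors' deposited table), with a summed level of 1475 normalised counts in E4 against 1476 in E0. In E1 4 of the 9 were raised and 1 lowered (3066 in E1 against 1511 in E0). Slc2a1 had the highest mean count of the 9 (651.9 in the authors' deposited table for E1), was among those raised and weighs most in this sum. Ptgr1, a reductase of prostaglandin metabolites, had 49.3, 36.0 and 17.4 normalised counts in E4 against 109, 83.1 and 101 in E0, and was lowered in the authors' deposited table for E4 (-1.33 ± 0.27, adjusted p = 8.5e-06). Slco3a1, a transporter that also carries prostaglandins, was raised there (0.87 ± 0.14, adjusted p = 2.6e-09), in the authors' deposited table.

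Along the lipoxygenase and epoxide arm 3 of 12 genes tested were raised in E1 and 0 lowered (3 and 1 by unadjusted p in the authors' deposited table), and in E4 1 of 10 was raised and 1 lowered. Over all genes tested 20.6% were raised and 15.0% lowered in E1, and 20.7% and 18.3% in E4. Alox8, a lipoxygenase gene, had 51.2, 42.6 and 45.7 normalised counts in E0, 168, 195 and 174 in E1 and 39.3, 25.6 and 18.4 in E4. It was raised in the authors' deposited table for E1 (1.82 ± 0.27, adjusted p = 1.2e-10) and not called in that for E4 (-0.63 ± 0.31, adjusted p = 0.0896). In E4 the leukotriene A4 hydrolase gene Lta4h was raised (0.53 ± 0.14, adjusted p = 0.000704) and the epoxide hydrolase gene Ephx1 lowered (-0.95 ± 0.19, adjusted p = 3.6e-06) in the authors' deposited table.

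**Figure D5:**
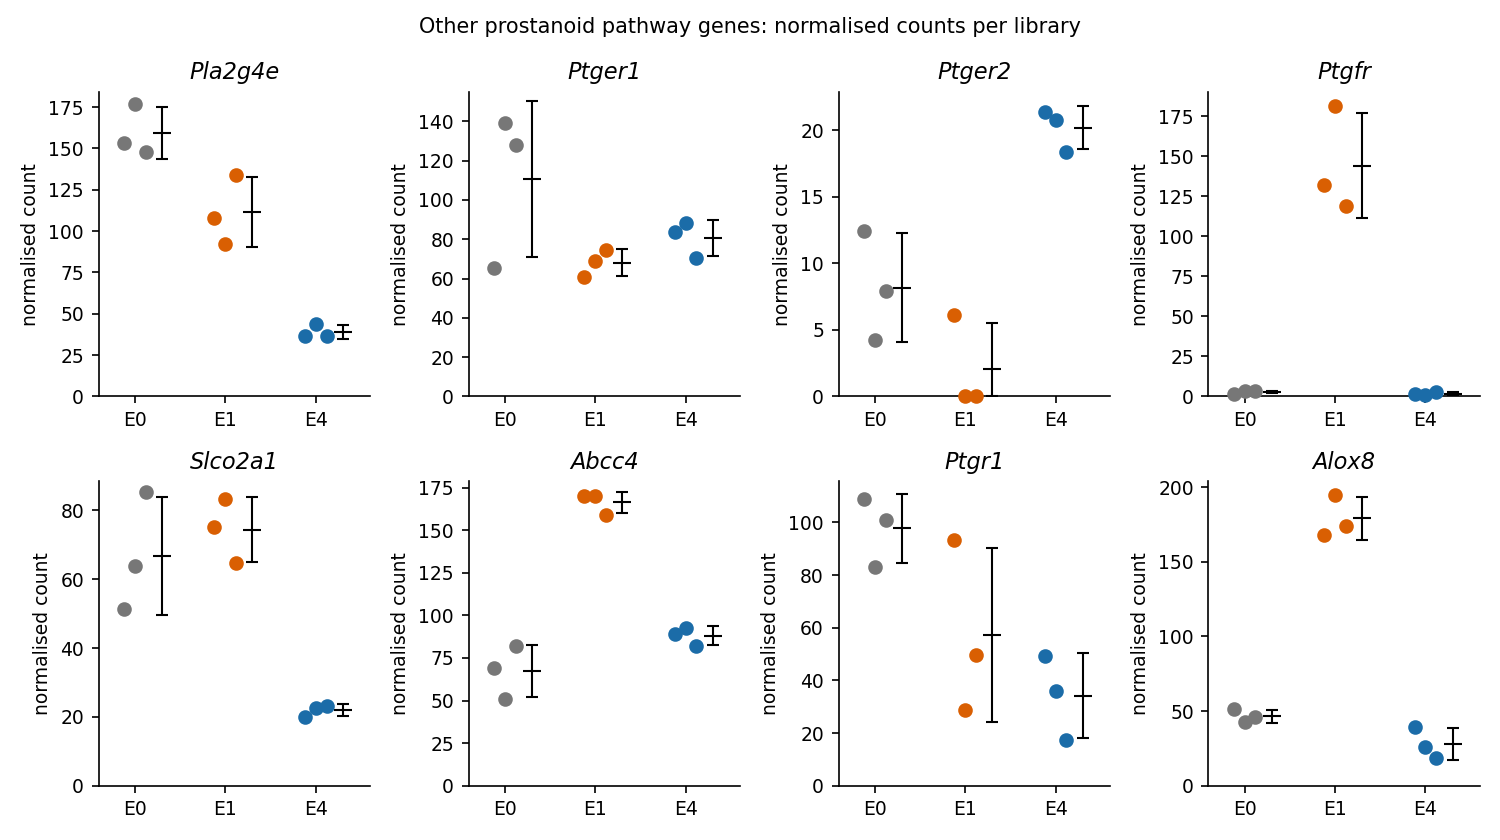
Normalised counts per library of 8 other pathway genes in E0, E1 and E4, with points for single libraries and bars for mean ± SD of 3 (cut at 0). Pla2g4e and Slco2a1 are lowest in E4, Abcc4, Alox8 and Ptgfr are highest in E1, and Ptger2 is highest in E4 at 18.4 to 21.4.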

How the data were processed

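Total RNA of the dentate gyrus of single mice was extracted with a column kit and made into Illumina libraries, per the labels' protocols. Per the submitters' processing notes, reads were aligned with TopHat2 to mm9 and compared with DESeq2. Versions, annotation, counting program and strand setting were not stated there. The material is a pair of result tables from the authors, each setting E1 or E4 against E0. Per the file headers, the signal column is the mean over 6 libraries of counts divided by size factors, each table having its own scale. The log2 fold changes and their SEs are the authors' deposited estimates. They appear shrunken toward 0 (Ptgfr in E1 has 4.56, against 5.73 from its solved reads), so folds of rarely read genes are understated. The fold of Ptgs2 in E4, whose SE is large for its level, may be understated too. The deposited score is the fold change over its SE, and the deposited p-values and adjusted p-values were recomputed from it within 3.6e-07. A missing adjusted p stays missing. Nothing shows whether mice shared a litter or day.

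Reads per library were solved for genes with a mean count of at most 115 in the table for E4 and 100 in that for E1. The second limit was set after the data were seen, because reads solved for Fos, which lies above it, spread far more between E1 libraries than its deposited SE allows. The step that 1 read makes in the mean count was read off genes with 1 read, for each library. Whole reads were then found that give the mean counts of both tables to the printed digits, with the same E0 reads in both. A solution was used where it was the only one, and the solver and the test of E4 against E1 were tested on simulated data. E1 libraries were put on the scale of the table for E4 through the E0 steps, whose ratio was 0.5275 to 0.5311. Group levels of Ptgs2, Ptges2, Ptges3 and Ptgds and of marker lists assume 3 libraries a group and a fold change that is not shrunken.

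E4 and E1 were compared by subtracting one deposited log2 fold change from the other and dividing by the root of the sum of squared SEs, with a two-sided normal p and Benjamini-Hochberg adjustment over the 12769 genes whose mean count reached 10 in both tables. Both estimates share E0, and they may be unequally shrunken. Intervals are 1.96 SEs to each side. All 9 members are named. Of each pathway list the rule names up to 3 genes with the smallest adjusted p among those reaching that mean count, and it adds Fos, Arc and up to 2 abundant markers of a member's cell types. Other genes named, such as Ptgfr, Ptger2, Abcc4 and Ptgs2os, were chosen after their values were seen. So were several markers outside the rule, such as Lum, Clic6 and Slc2a1. One further marker of the microglia list is not reported here and was left out of its counts and sums. The members and lists were chosen with earlier results of these data known. Python 3.11.15, numpy 2.4.6, pandas 2.3.3 and scipy 1.17.1 were used.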

Additional observations from a re-analysis of the deposited data

Results flagged for a closer look

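Of the genes named by rule, 8 had fold changes that differed between the comparisons by the test of E4 minus E1 on the deposited log2 fold changes. Over all 12769 genes tested 36.7% differed. The pathway genes among the 8 were named for a small adjusted p, so their number is not a result about the pathway. Ptgs2 differed by -2.11 and Alox8 by -2.45, both being less raised or lower in E4. Slco2a1 differed by -1.56, Pla2g4e by -1.40 and Ephx1 by -0.89. Ptgfrn differed by 1.71, Lta4h by 0.65 and Slco3a1 by 0.60, all higher in E4 than in E1. The adjusted p ranged from 7.8e-10 for Ptgs2 to 0.0271 for Slco3a1. Both comparisons share the E0 libraries, and unequal shrinkage of their fold changes may alter these differences.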

How the results depend on the processing

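No paired analysis was possible because the files hold comparisons and no column carries a replicate number, and the solved reads are not tied to replicate numbers. Leaving out single replicates was not run, since no fit across all genes can be made from reads solved for rarely read genes alone. In E1 the count of members called was 2 under each alternative but 1, the removal of a centred length and GC trend, which left 1 (Ptgs2). The members called in E4 stayed at 2 or 3, Ptgs1 being lost at an adjusted p of 0.01, and Ptgs2 was the only member to differ between E4 and E1 under all 5 alternatives. The E0 level of Ptgs2 was 322 normalised counts from the table for E4 in place of 279. Over single named genes 311 of 320 values kept their side of the threshold, 7 lost a call, 2 gained one and 0 reversed. A value not called at an adjusted p of 0.05 could not change at 0.01, so part of the 311 was fixed in advance. The counts of pathway genes called stayed within 1.5 times. The trend could be fitted for 99.1% of the genes tested in each comparison. Depth limits the receptors most, since E1 libraries held 18 reads of Ptger4 and 5 of Ptger3 in all.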

Other observations

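The genes here were singled out after their values were seen. Ptgfr, the prostaglandin F receptor, had 2, 3 and 2 reads in the E0 libraries, 65, 63 and 24 in E1 and 2, 1 and 3 in E4. In the authors' deposited table for E1 it stood at 4.56 ± 0.42 (adjusted p = 7.0e-26) and in that for E4 at -0.19 ± 0.41 with no adjusted p. It was 1 of 190 genes raised in E1 by a log2 fold change of at least 4, and for 135 of these the mean count was below 5 in the other table. Abcc4, an exporter of prostaglandins, had normalised counts of 68.9, 51.1 and 82.0 in E0, 170, 170 and 159 in E1 and 89.3, 92.8 and 82.1 in E4. All 3 libraries of E1 and of E4 lay above those of E0, though in E4 only by 82.1 against 82.0 at the closest. It was raised in the authors' deposited table for E1 (1.24 ± 0.27, adjusted p = 2.4e-05) and not called in that for E4 (0.37 ± 0.23, adjusted p = 0.194).

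Ptger2, a prostaglandin E receptor that raises cAMP, had 14, 4 and 5 reads in E0, 3, 0 and 0 in E1 and 30, 22 and 19 in E4. All 3 E4 libraries lay above all 3 E0 libraries, at 20.2 ± 1.63 normalised counts in E4 against 8.17 ± 4.06 in E0 (SD, n = 3 each). Ptger2 was just not called in the authors' deposited table for E4 (0.92 ± 0.40, adjusted p = 0.0533). Ptgs2os, a noncoding RNA whose annotated start lies 68 bases upstream of that of Ptgs2 on the opposite strand, had 2, 1 and 1 reads in E0, 1, 0 and 1 in E1 and 11, 7 and 9 in E4. In the authors' deposited table for E4 it stood at 1.03 ± 0.44 (adjusted p = 0.0516), and in that for E1, where Ptgs2 itself was highest, at 0.11 ± 0.46 with no adjusted p. Ptgs2os and Ptgs2 do not overlap in GENCODE vM21.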
